A study of Mus musculus with 11 samples.

Results

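Kidneys of mice carrying 1 intact and 1 targeted allele of Cldn16 (Cldn16 +/-, called Het) were compared with kidneys of mice carrying 2 intact alleles (Cldn16 +/+, called WT). The comparison used 7 of the 11 arrays of the series, 3 Het and 4 WT, chosen by the genotype in the labels. The other 4 arrays held kidneys with no intact allele (Cldn16 -/-, called KO) and are shown beside the 7 where they place the Het level. All mice were females of 8 weeks with a mixed background of 129S7/SvEvBrd-Hprtb-m2 and C57BL/6N, crossed back to C57BL/6N in 1 generation, so that alleles of both strains can still segregate in every group. Each array held RNA of the whole kidney, without its poles, from 1 numbered mouse. WT 1 and WT 2 were taken at postnatal day 59 and WT 3 and WT 4 at day 58. Het 1 was taken at day 59, and Het 2 and Het 3 at day 58. WT 1, WT 2, Het 1 and Het 2 lay on slide 1, and WT 3, WT 4 and Het 3 lay on slide 2, so that slide 2 held a single Het array.

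The thick ascending limb of the loop of Henle holds claudin-16 in its tight junctions. Together with claudin-19 it takes part in the paracellular route along which magnesium and calcium leave the tubule fluid, and people who lack it on both alleles lose both ions in the urine. The distal convoluted tubule, which lies further along the nephron, takes up the same ions through cells by channels such as Trpm6 and Trpv5. The comparison asked which transcripts differed when 1 allele was lost.

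On each of the 7 arrays, 18854 to 19713 of the 45281 probes were detected at a p under 0.01. Pairwise correlations over the tested probes ran from 0.986 to 0.991 within WT, from 0.985 to 0.989 within Het, and from 0.985 to 0.990 between WT and Het. The arrays thus correlated about as closely across the genotypes as within them. Segment genes of the kidney were bright on all 7 arrays: the log2 intensity of Kap, an androgen-regulated gene of the proximal tubule, ran from 14.42 to 14.80 on the 7 arrays, and that of Egf, made in the thick ascending limb and distal convoluted tubule, from 14.17 to 14.34. In bulk tissue a lower level can mean fewer cells of a type or less RNA per cell, and the arrays cannot tell these apart. The p-values measure the spread between mice.

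The Cldn16 probe (ILMN_2954714, chromosome 16) was detected on every array. Its log2 intensity was 9.61, 9.17, 9.68 and 9.59 in WT 1 to WT 4, and 9.28, 9.38 and 9.37 in Het 1 to Het 3. The Het values lay inside the WT range, since WT 2 was below all of them. The means were 9.51 ± 0.23 (SD, n = 4) in WT and 9.34 ± 0.06 (SD, n = 3) in Het, a difference of -0.17 ± 0.17 (SE). Its 95% interval ran from -0.54 to 0.21 on the log2 scale, and neither limma (adjusted p = 0.902) nor an exact two-sided permutation test (p = 0.229, where 0.0571 is the smallest that 3 against 4 arrays can give) placed it past the threshold. The difference was -0.06 on slide 1 and -0.26 on slide 2, and ran from -0.28 without WT 2 to -0.11 without WT 3. The KO arrays averaged 8.99 ± 0.33 (SD, n = 4), so that the Het mean lay between the means of the other genotypes. The labels do not place this probe inside or outside the altered stretch of the gene, so its level is no check on the genotypes.

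No probe passed the threshold in Het against WT: 0 of 22856 tested probes (0%) had a limma adjusted p under 0.05, and the lowest was 0.349. An unadjusted p under 0.05 was found for 1543 probes (6.75%), of which 843 (3.69%) were higher in Het and 700 (3.06%) lower, where 1143 would be the number at an even spread of p-values. At an unadjusted p under 0.001 there were 27 probes, 19 higher and 8 lower, beside 22.9 at an even spread; there were 7 without Het 2 and 46 without WT 3. The median SE was 0.15 on the log2 scale, and the 95% interval of the difference lay within 2-fold in either direction for 96.9% of probes and within 1.5-fold for 77.9%. The median difference over all tested probes was -0.003, and 49.2% of them were higher in Het. When arrays were only shifted to equal medians in place of quantile normalization, the median difference of all probes was 0.10 and the split at an unadjusted p under 0.05 was 1348 higher and 233 lower, that is 85.3% higher beside 54.6% in the main analysis; signs of differences under about 0.10 therefore depend on the scaling. For comparison, the same model with the same WT arrays called 9 probes (0.0394%) in KO against WT.

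**Figure D1:**
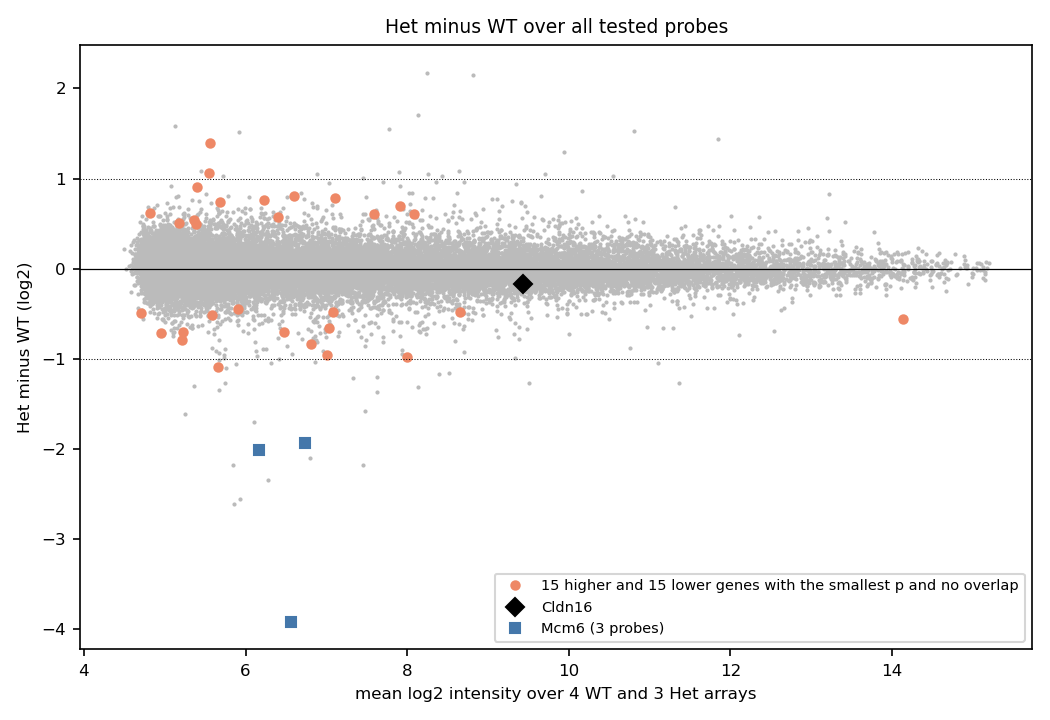
Het minus WT difference (log2, vertical axis) against the mean log2 intensity over the 7 WT and Het arrays (horizontal axis), 1 point per tested probe, with dotted lines at a 2-fold difference. Cldn16 (diamond, -0.17) lies within the cloud, the 30 named genes (circles) have adjusted p of 0.349 or above, and the 3 Mcm6 probes (squares) lie lowest among the marked points, down to -3.91.

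A Het level off the midpoint between the WT and KO means can mark genes for which 1 allele acts nearly like 2 or like none. It can also mark genes whose Het level lies outside both means. Such a departure was looked for in every tested probe. A departure from the midpoint was called for 0 of 22856 probes (0%), with no limma adjusted p below 0.9988, and 955 probes (4.18%) had an unadjusted p under 0.05.

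The genes that were called in KO against WT were read in Het beside their KO values; both differences use the same 4 WT arrays, so they are given side by side and not set against each other. Slc8a1 encodes the sodium-calcium exchanger of the basolateral membrane in the distal nephron. Its log2 intensity on the called probe was 10.40, 9.999, 10.27 and 10.49 in WT and 10.55, 10.18 and 10.04 in Het, beside a KO mean of 11.41. Het and WT overlapped, with a difference of -0.03 ± 0.16 (limma adjusted p = 0.987) and a 95% interval from -0.37 to 0.31, beside 1.13 in KO. The brightest of the 3 Slc8a1 probes gave -0.31 in Het, and the remaining one, below background in WT, gave 0.11.

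Tnn, which encodes the matrix protein tenascin-N, was below background in WT, at 4.87, 4.45, 4.98 and 4.90, and read 5.31, 5.81 and 5.68 in Het. Every Het array was above every WT array, by at least 1.36-fold in the means, with a limma adjusted p of 0.661, beside a KO mean of 6.26. Antxr1, an anthrax toxin receptor that binds matrix proteins, read 5.79, 5.59, 5.68 and 5.88 in WT and 6.25, 6.17 and 6.14 in Het. The groups did not overlap, and the difference was 0.45 ± 0.12 (adjusted p = 0.661), beside 0.74 in KO; a further probe of Antxr1 gave -0.11 in Het. Ptges, the inducible prostaglandin E synthase, read 6.99, 6.54, 6.77 and 6.65 in WT and 6.98, 7.21 and 6.91 in Het. WT 1 reached into the Het range, and the difference was 0.29 ± 0.14 (adjusted p = 0.746), beside 0.98 in KO.

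Among the genes lower in KO, Gm773 read 5.51, 6.28, 5.42 and 6.37 in WT and 5.29, 5.67 and 4.96 in Het, which overlapped, with a difference of -0.59 ± 0.23 (adjusted p = 0.716); it was below background in KO. Grin3a, an NMDA receptor subunit, differed by -0.14 ± 0.14 in Het and by -1.07 in KO, and WT 4 (6.14) lay below all 3 Het arrays. Odf4, named for the outer dense fibre of sperm tails, differed by -0.17 in Het and -0.76 in KO, and Abhd10, a mitochondrial thioesterase, by -0.21 and -0.75. Further probes gave -0.004 for Odf4 and -0.05 for Abhd10 in Het. The Het mean of Slc8a1 on the called probe lay within the WT range. Those of Tnn, Antxr1, Ptges, Grin3a, Odf4 and Abhd10 lay between the WT and KO means. Because the genes were chosen for their KO differences from these same WT arrays, Het means unrelated to dose would often lie there too. This placement therefore carries no test. No Het difference from WT passed the test for any of the 8 genes.

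**Figure D2:**
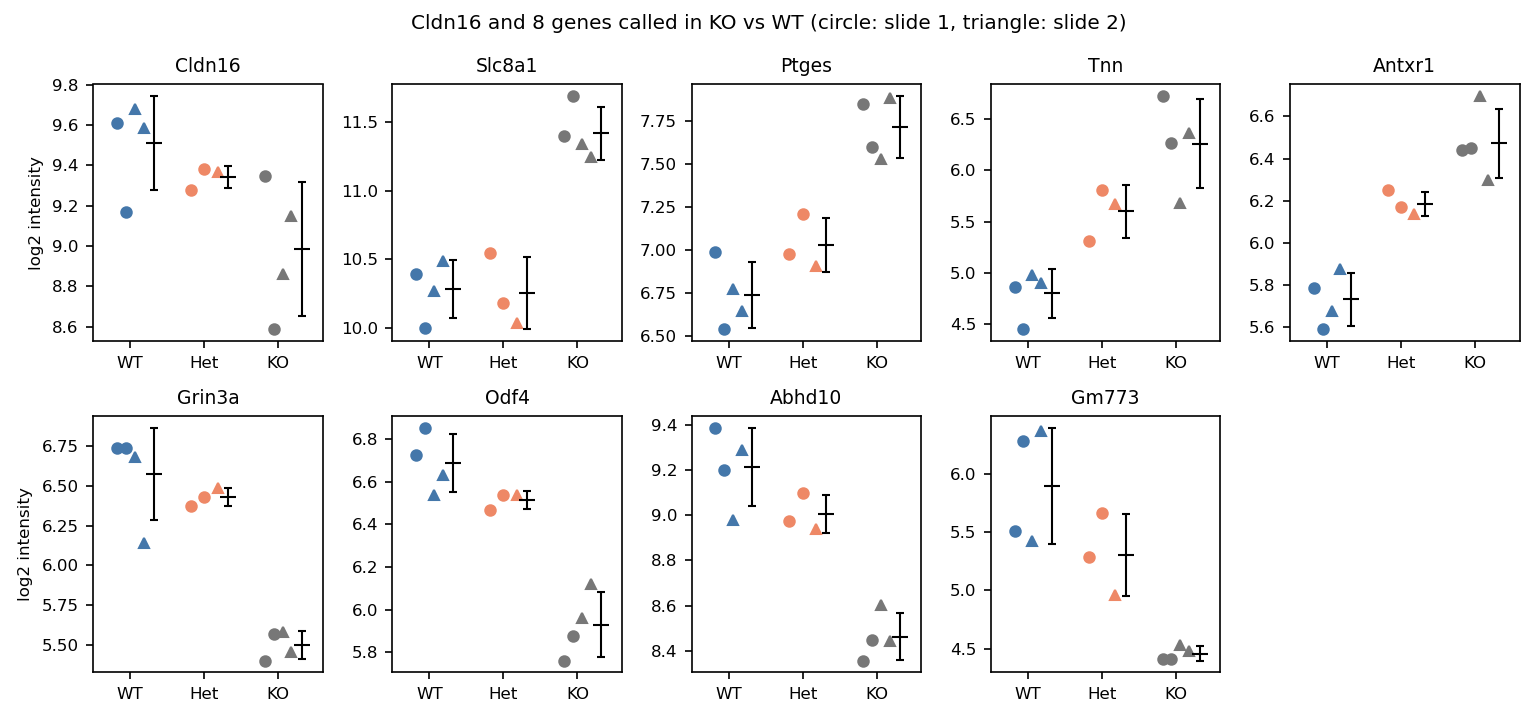
Log2 intensity (vertical axes, each scaled to its gene) of Cldn16 and the 8 genes called in KO against WT, 1 point per array, with bars for the mean and SD; circles are slide 1 and triangles slide 2. Het overlaps WT for Cldn16 and Slc8a1, and all 3 Het arrays lie above all WT arrays for Tnn and Antxr1.

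The genes with the smallest unadjusted p among those whose Het and WT arrays did not overlap are described next, 15 in each direction. The contrast itself chose them, so their values carry no test of their own, and their adjusted p ran from 0.349 to 0.661. Over all tested probes, 765 (3.35%) had every Het array above every WT array and 771 (3.37%) every Het array below.

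Among the genes higher in Het, Cndp1, a dipeptidase that splits carnosine, read 6.09, 6.14, 6.41 and 6.39 in WT and 6.98, 7.15 and 7.05 in Het. The gap between the groups was wider than the range inside either, and the difference was 0.80 ± 0.13 (limma adjusted p = 0.349), with 0.97 on slide 1 and 0.63 on slide 2. Il22ra1, a subunit of the interleukin-22 receptor of epithelia, had the largest difference of the 15, with 4.61, 5.34, 4.78 and 5.12 in WT and 6.01, 6.07 and 6.98 in Het (1.39 ± 0.30). Only 1 of the WT arrays had a detection p under 0.01 for it, against all 3 Het arrays.

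Car9, a membrane carbonic anhydrase known as a hypoxia target, read 5.38, 5.41, 4.81 and 4.77 in WT and 6.55, 6.11 and 5.81 in Het on its first probe, a difference of 1.06 ± 0.20. Its brighter probe gave a smaller difference of 0.44 ± 0.16, again with no overlap. Secisbp2, which is needed to read selenocysteine codons, differed by 0.78, Gphn, the scaffold protein gephyrin, by 0.90, and Spidr, a DNA repair scaffold, by 0.70. The other probes of Gphn gave -0.02 to 0.08, so its difference was not shared among its 4 probes.

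The remaining higher genes were Gm128 (0.74), Rtl8a (0.76), Klhl22 (0.61), Cd2bp2 (0.61), 4930402H24Rik (0.60), Mief2 (0.57), Entpd7 (0.54), Cyb5rl (0.50) and Timm17b (0.50). Of these, Cd2bp2 and Cyb5rl were below background in WT, so that their bounds are at least 1.01-fold and at least 1.25-fold. Genes with further probes did not all show their difference there: these gave -0.22 for Timm17b, -0.06 for Entpd7, -0.12 and 0.05 for Cyb5rl, 0.04 for Rtl8a, 0.11 for 4930402H24Rik and 0.22 for Cd2bp2, while those of Klhl22 and Mief2 were below background in WT. Mief2 and Timm17b both encode mitochondrial proteins, which act in division and in protein import, and Klhl22 is an adaptor of a ubiquitin ligase.

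Among the genes lower in Het, ND6, a subunit of respiratory complex I encoded by the mitochondrial genome, read 7.12, 7.43, 7.56 and 7.56 in WT and 6.32, 6.47 and 6.59 in Het. The lowest WT array lay above the highest Het array by more than the range within Het, and the difference was -0.96 ± 0.15 (limma adjusted p = 0.349), with -0.90 on slide 1 and -0.95 on slide 2. The 19 tested genes of the respiratory chain list had a median of -0.03, with 7 higher and 12 lower and 0 at an unadjusted p under 0.05.

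Slc16a14, an orphan of the monocarboxylate transporter family, read 8.35, 8.71, 8.19 and 8.42 in WT and 7.45, 7.21 and 7.66 in Het (-0.98 ± 0.19). Lpl, the lipoprotein lipase, was bright throughout, with 14.35, 14.66, 14.11 and 14.35 in WT and 13.89, 13.71 and 13.85 in Het (-0.55 ± 0.13). Zbtb16, a zinc finger transcription factor, differed by -1.09 ± 0.27, and Emc7, of the membrane complex that inserts proteins into the endoplasmic reticulum, by -0.84 ± 0.19. The Emc7 difference was -1.17 on slide 1 and -0.28 on slide 2, and its other probe gave -0.05.

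Fcrls and Clec10a, both known from macrophages, were below background in Het, so that WT was at least 1.36-fold and at least 1.34-fold higher. Vav1, a signalling protein of blood cells, differed by -0.45 ± 0.11, while Fcrla, a B cell gene, was below background in both groups, so that no fold is given; its other probe, also below background, had the opposite sign. The list of immune cell genes, beside these, had 16 tested members, 5 higher and 11 lower, with 0 at an unadjusted p under 0.05 and a median of -0.03. The last of the 15 were Sec16b (WT at least 1.11-fold higher), Vangl2 of planar cell polarity (-0.70), Sox9 (-0.65, taken up below), Colgalt2 (-0.51), Tmtc4 (-0.48) and Nrm (-0.48). Further probes gave -0.66 and 0.10 for Colgalt2 and -0.18 and -0.11 for Tmtc4, and that of Vangl2 was below background in both groups.

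**Figure D3:**
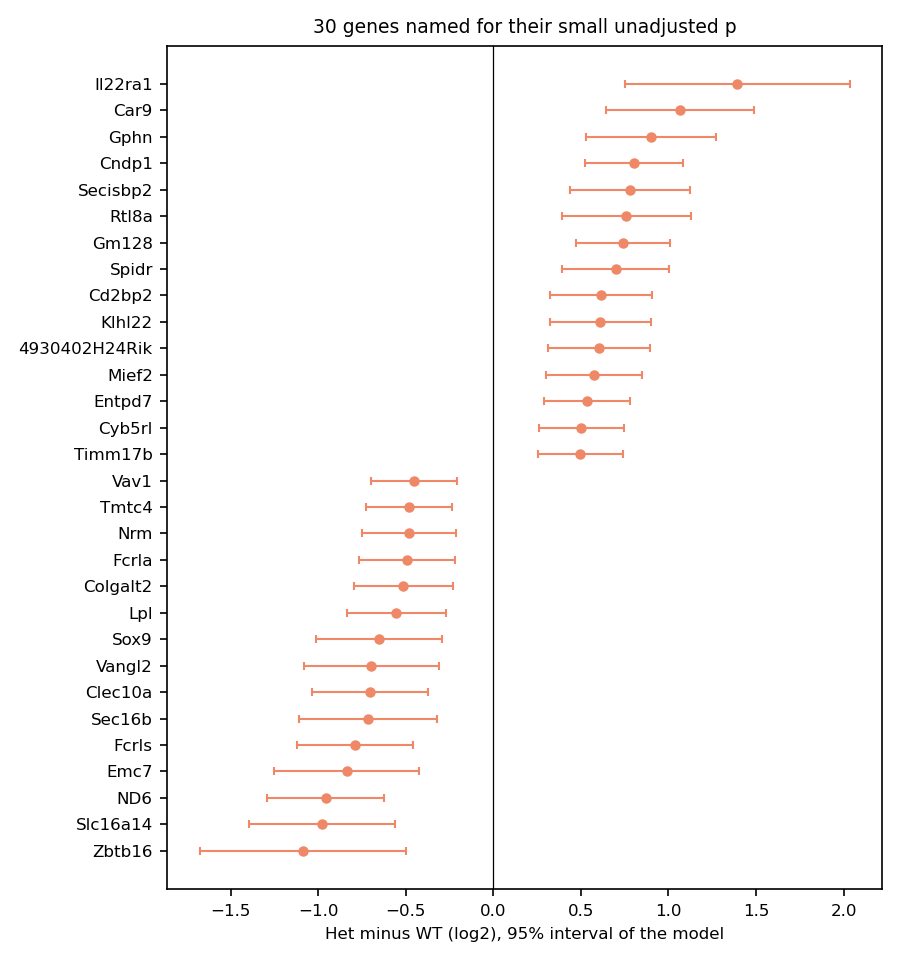
Het minus WT difference (log2, horizontal axis) with the 95% interval of the model for the 15 higher and 15 lower genes with the smallest unadjusted p and no overlap of arrays. The points run from -1.09 (Zbtb16) to 1.39 (Il22ra1); the intervals are not adjusted for the choice of genes out of 22856 probes.

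Genes were then read by function, 1 probe per gene, the brightest. Over all 12179 genes, 5832 were higher and 6347 lower in Het with a median of -0.01. At an unadjusted p under 0.05 there were 766 (6.29%), 390 (3.20%) higher and 376 (3.09%) lower, and 0 (0%) passed the adjusted threshold. The lists held 387 distinct tested genes, of which 41 had an unadjusted p under 0.05 and 0 passed the adjusted threshold.

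The calcium and magnesium list had 19 tested members of 25. There were 7 higher and 12 lower, with a median of -0.07, and the 95% interval lay within 2-fold for all 19. Stanniocalcin-2 (Stc2), a secreted glycoprotein of the family first known from calcium control in fish, read 6.56, 6.74, 6.76 and 6.57 in WT and 6.04, 6.13 and 6.28 in Het. The groups did not overlap, with a difference of -0.51 ± 0.17 (limma adjusted p = 0.663) beside -0.52 in KO. Atp13a4, a cation-transporting ATPase on chromosome 16, read 6.24, 7.04, 6.97 and 6.35 in WT and 7.20, 7.41 and 6.86 in Het, which overlapped (0.51 ± 0.22, adjusted p = 0.722).

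No tested channel or binding protein of transcellular uptake passed the threshold in Het. Calb1, a further calcium-binding protein of the list, did not pass the filter on dim probes. Trpm6, the magnesium channel of the distal convoluted tubule, differed by 0.12 ± 0.14 with a 95% interval from -0.18 to 0.42, beside 0.73 in KO. Its other probes had the opposite sign, at -0.21 and -0.09. Trpv5, the apical calcium channel, differed by -0.07 (-0.33 to 0.19) and Cnnm2, a basolateral magnesium protein, by -0.08 (-0.35 to 0.19). The calcium-binding proteins S100g and Pvalb differed by -0.24 and -0.19. For S100g, the lowest array of all 7 was Het 3 at 7.82, while Het 1 (9.38) and Het 2 (9.23) lay inside the WT range of 8.79 to 9.46. The calcium-sensing receptor Casr differed by 0.02 and the magnesium hormone Egf and its receptor Egfr by -0.04 each.

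The pumps Atp2b1 and Atp2b4 differed by 0.25 and -0.21, and the channels Trpv6 and Trpm7 by 0.22 and 0.17. Slc41a3 and Pcbd1, both tied to inherited or experimental magnesium loss, differed by -0.14 and -0.22, and Stc1 by -0.12. The other probe of Slc41a3 gave 0.29. Fxyd2, a regulator of the sodium pump tied to inherited magnesium loss, differed by 0.12, and its other probes gave -0.12 and -0.05. The median of the same list in KO, against the same WT arrays, was 0.21.

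The tight junction list had 20 tested members, 7 higher and 13 lower, with a median of -0.03. Cldn19, the partner of claudin-16, differed by -0.03 with a 95% interval from -0.27 to 0.20, and Cldn14 did not pass the filter on dim probes. Cldn7 read 7.16, 7.08, 7.11 and 7.28 in WT and 6.87, 6.85 and 6.71 in Het, with no overlap (-0.35 ± 0.15, adjusted p = 0.722). F11r, the junctional adhesion molecule A, differed by -0.51 ± 0.20 and Cldn8 by -0.36 ± 0.19, both with overlapping arrays.

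The medians of the nephron segment lists lay from -0.03 to 0.08, beside -0.01 for all genes. The thick ascending limb, where claudin-16 acts, had 17 tested members, 8 higher and 9 lower, with a median of -0.002 and all 17 intervals within 2-fold; 1 member, Enox1 (-0.45 ± 0.16), had an unadjusted p under 0.05. The distal convoluted tubule had 4 higher and 11 lower members of 15 and a median of -0.03, beside 0.41 in KO. Its 1 member with an unadjusted p under 0.05 was Sgk1, a kinase induced by aldosterone, which read 12.71, 13.35, 12.93 and 12.85 in WT and 13.80, 13.16 and 13.61 in Het (0.56 ± 0.19, adjusted p = 0.667) and overlapped through WT 2 and Het 2.

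The collecting duct principal cell list had 11 higher and 7 lower members and a median of 0.07, with 0 at an unadjusted p under 0.05. The intercalated cell list had 11 higher and 3 lower and a median of 0.08, and its members included Atp6v1g3, a proton pump subunit (0.37), and Rhbg, an ammonia transporter (-0.29). The sodium and renin-angiotensin-aldosterone list had 7 higher and 5 lower and a median of 0.07. The proximal tubule list had 11 higher and 8 lower and a median of 0.04. With single arrays left out, the medians of the segment lists lay from -0.08 to 0.15.

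In the proximal tubule list, Slc7a7, a basolateral amino acid transporter, read 9.63, 10.06, 9.03 and 10.48 in WT and 10.56, 10.67 and 10.76 in Het, with no overlap (0.86 ± 0.26, adjusted p = 0.661). Its other probes gave -0.45 and 0.80, which differ in sign. Cyp2e1 differed by 0.57 ± 0.23 and Kap by -0.25 ± 0.10. The podocyte list had 7 higher and 2 lower and a median of 0.09, and the endothelium list 10 higher and 3 lower and a median of 0.05. In it, Tie1, a receptor kinase of vessels, read 5.96, 5.83, 5.87 and 6.03 in WT and 6.30, 6.41 and 6.49 in Het, without overlap (0.48 ± 0.11, adjusted p = 0.661).

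The list of water handling and osmotic response had 12 higher and 3 lower members of 15 and a median of 0.21, but without Het 3 the median was 0.03, and with other single arrays left out it ran up to 0.31, without Het 1. Slc6a12, the betaine transporter that tonicity induces, read 7.05, 7.73, 8.31 and 7.57 in WT and 7.96, 8.48 and 9.07 in Het, which overlapped through WT 3 (0.84 ± 0.31, adjusted p = 0.696). Aqp6, of the aquaporin family and also a member of the intercalated cell list, differed by 0.50 ± 0.19. The vasopressin receptor Avpr1a differed by -0.32 ± 0.13, though a further probe of Avpr1a gave 0.05. The list of vitamin D, parathyroid hormone and phosphate had 6 higher and 9 lower, a median of -0.09 and 0 members at an unadjusted p under 0.05; Klotho (Kl) differed by -0.29 ± 0.14.

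The list of tubule injury genes had the lowest median, -0.33, beside -0.19 in KO, with 2 higher and 10 lower of 12 tested members. The list mean, relative to WT, was -0.58, -0.36 and -0.12 on Het 1 to Het 3 and -0.30 on WT 3, so the groups overlapped. The means of WT 3 and Het 1 include low values of the member Havcr1, 5.73 and 5.64. On the other WT and Het arrays Havcr1 read 9.67 to 11.81, and the list mean without it was not computed. An unadjusted p under 0.05 was found for 5 of the 12, all lower in Het, beside 3.09% of all genes. The list was chosen with earlier results of these data known, so this share carries no test. No member passed the adjusted threshold. Sox9, a transcription factor switched on in repairing tubules, read 7.43, 7.33, 7.41 and 7.05 in WT and 6.68, 6.57 and 6.71 in Het, without overlap (-0.65 ± 0.17, limma adjusted p = 0.661).

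Lcn2, the secreted injury marker lipocalin-2, read 7.31, 7.95, 7.20 and 7.38 in WT and 6.81, 7.15 and 6.18 in Het. The highest Het array lay just under the lowest WT array (-0.75 ± 0.27, adjusted p = 0.693). Timp1, an inhibitor of matrix proteases, differed by -0.45 ± 0.19, and 2 further members chosen after their values were seen, the cell cycle inhibitor Cdkn1a and the hyaluronan receptor Cd44, by -0.67 ± 0.30 and -0.47 ± 0.21. The list median was -0.37 on slide 1 and -0.39 on slide 2, and with single arrays left out it ran from -0.37 to -0.19, the latter without Het 1. With arrays shifted to equal medians it was -0.23.

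The circadian clock list had the highest median, 0.45, beside 0.16 in KO, with 9 higher and 4 lower of 13 tested members. An unadjusted p under 0.05 was found for 5 members, all higher in Het, beside 3.20% of all genes, and no member passed the adjusted threshold. This list too was chosen with earlier results known, so the share carries no test. Per1, a repressor arm gene of the clock, read 8.82, 9.33, 9.27 and 8.10 in WT and 9.51, 9.58 and 9.64 in Het. The 3 Het arrays lay close together and above all WT arrays, of which WT 4 was lowest (0.70 ± 0.24, limma adjusted p = 0.666).

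Per2 read 9.90, 10.05, 10.19 and 9.24 in WT and 10.24, 10.55 and 10.42 in Het, again without overlap and with WT 4 lowest (0.56 ± 0.20, adjusted p = 0.695). Tef, an output factor, differed by 0.52 ± 0.21 and on a further probe by 0.10. Of members chosen after their values were seen, the output factor Dbp differed by 0.45 ± 0.18, Ciart by 0.66 ± 0.30 and the activator Arntl by -0.59 ± 0.33. The list median was 0.42 on slide 1 and 0.36 on slide 2, and ranged from 0.21 without Het 2 to 0.64 without Het 1 when single arrays were left out. The labels give no hour of the day at which the kidneys were taken, and its part in the result was not tested.

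**Figure D4:**
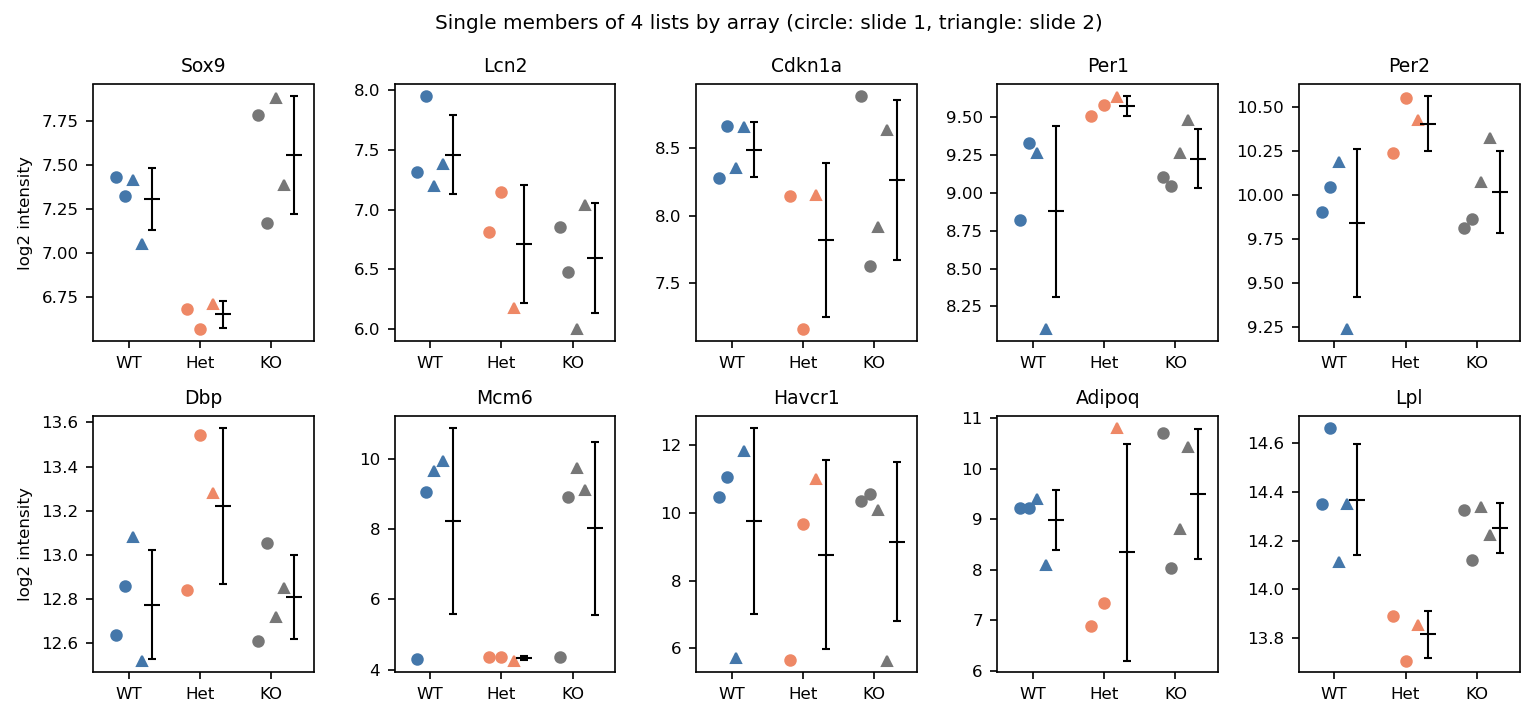
Log2 intensity (vertical axes, each scaled to its gene) of members of the tubule injury, clock, cell cycle and adipose lists, 1 point per array, with bars for the mean and SD; circles are slide 1 and triangles slide 2. Sox9 and Lcn2 lie lower and Per1 and Per2 higher on all 3 Het arrays than on any WT array, Mcm6 falls into a low and a high level, and Adipoq is highest on Het 3 among the 7 arrays (10.81).

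The extracellular matrix list had 5 higher and 16 lower members of 21 and a median of -0.23. At an unadjusted p under 0.05 there were 1 higher and 3 lower, beside 3.20% and 3.09% of all genes. Like the others, the list was chosen with earlier results known, so these counts carry no test. The median was -0.06 without Het 2, -0.13 on slide 2 and about -0.11 with arrays shifted to equal medians. Col4a1, a basement membrane collagen chain, read 11.73, 11.80, 11.72 and 11.59 in WT and 11.59, 11.22 and 11.15 in Het (-0.39 ± 0.14, adjusted p = 0.689). Col6a1 differed by -0.50 ± 0.19 with overlapping arrays, and the member higher in Het was Tnn. The interferon list had 4 higher and 10 lower and a median of -0.13, which was 0.004 on slide 1, -0.30 on slide 2, -0.20 without WT 2 and -0.08 without WT 3.

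The other response lists had medians from -0.07 to 0.11. The cell cycle list had 5 higher and 10 lower (median -0.07), the amino acid stress list 5 higher and 9 lower (-0.02), the list of fatty acid oxidation and PPAR alpha targets 9 higher and 11 lower (-0.02), and the oxidative stress list 9 of each (0.002). The hypoxia list had 9 higher and 5 lower (0.04), the immediate early and heat shock list 13 higher and 6 lower (0.08), and the cholesterol synthesis list 8 higher and 6 lower (0.11, but -0.004 without Het 1 and 0.03 without WT 3). In the immediate early list, Jun differed by -0.35 ± 0.14 and the chaperone Hspa1a by 0.57 ± 0.25 (0.11 on a further probe); in the fatty acid list, Pdk4 differed by -0.43 ± 0.19 and Ehhadh by -0.39 ± 0.16.

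**Figure D5:**
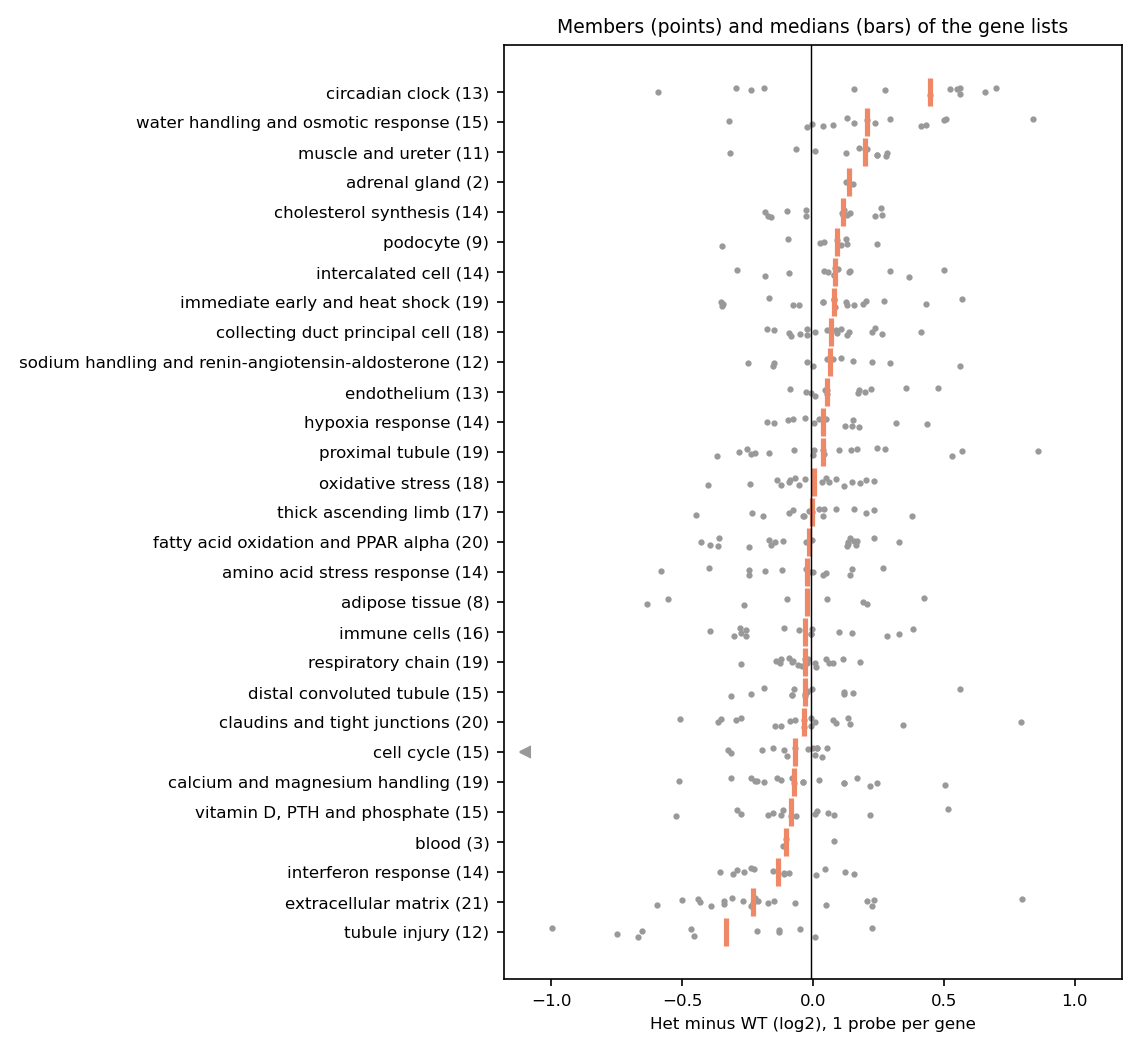
Het minus WT difference (log2, horizontal axis) of every tested member (points) and the median (bars) of 29 gene lists, 1 probe per gene, with the number of tested members in brackets and an arrow for a member beyond the axis. Medians run from -0.33 (tubule injury) to 0.45 (circadian clock), around -0.01 for all genes.

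Markers of tissues that a dissection can bring along varied among the Het arrays. The mean of the adipose list, relative to WT, was -1.03 on Het 1, -0.62 on Het 2 and 1.39 on Het 3, and ran from -0.56 to 0.28 in WT. Adiponectin (Adipoq) read 9.21, 9.21, 9.41 and 8.09 in WT and 6.89, 7.34 and 10.81 in Het, so that the Het arrays lay on both sides of WT. The adipose list had 4 higher and 4 lower members and a median of -0.02, which was -0.88 on slide 1 and 1.94 on slide 2. Lpl, a member of that list that kidney cells also express, was lower on all 3 Het arrays than on every WT array. The part of adipose tissue in the Lpl difference was not tested.

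The muscle and ureter list had 9 higher and 2 lower members and a median of 0.20, which was -0.12 without Het 3. The blood list had 1 higher and 2 lower members and a median of -0.10, which had either sign, from -0.38 without WT 3 to 0.18 without Het 2, and was -0.57 on slide 1 and 0.54 on slide 2. The adrenal list had 2 tested members, both higher, and a median of 0.14, which was 0.01 without Het 3 and 0.26 without Het 2. The part of these tissues in the other differences was not tested.

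The genes that lie next to Cldn16 on chromosome 16 travel with the targeted allele when it is passed on. In the reference gene order the nearest detected genes before it are Cldn1, P3h2, Trp63, Lpp and Bcl6, and those after it Tmem207, Il1rap, Gmnc, Ccdc50 and Fgf12. The differences of the first group were 0.34, -0.12, 0.28, -0.68 and 0.45. Those of the second group were 0.04, 0.01, -0.30, -0.17 and -0.01, with Gmnc below background in Het (WT at least 1.14-fold higher). Lpp, an adhesion protein, read 9.38, 9.21, 9.59 and 9.38 in WT and 8.31, 8.67 and 9.16 in Het, without overlap (-0.68 ± 0.20, limma adjusted p = 0.661), but its 4 other probes gave -0.40 to 0.06.

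Over the whole of chromosome 16, 30 of 403 tested genes (7.44%) had an unadjusted p under 0.05, beside 4.12% to 12.5% on the other chromosomes, where the highest share was that of chromosome 1. The share on chromosome 16 ran from 4.71% without WT 1 to 10.9% on slide 1 alone, where it was the highest of all chromosomes. Both Spidr and Klhl22 of the 15 higher genes lie on chromosome 16. No gene of the chromosome passed the adjusted threshold.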

How the data were processed

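Kidney RNA was hybridised to Illumina mouse bead arrays, 1 per mouse. Per the file headers, the deposited values are linear intensity and detection p-value columns for 45281 probes. The submitters' processing notes name BeadStudio. Its version, background treatment and definition of that p-value, not given in the sources used here, remain unknown. The authors' own processed table of intensities served as an alternative, and 0 sample columns were left unused.

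Normexp by detection p-values in limma (offset 16) removed background, and quantile normalization and a log2 transform followed (limma 3.58.1, statmod 1.5.0, R 4.3.3). The offset makes differences of dim probes look smaller. Testing was limited to the 22856 probes detected (p under 0.05) on 3 or more arrays, of which 19265 had 1 gene symbol in the platform annotation and 3591 none or several. All 11 arrays were fitted together by genotype (lmFit, eBayes), so that the 3 genotypes shared 1 estimate of the spread, and two-sided p-values were adjusted by the Benjamini-Hochberg method over all tested probes (threshold 0.05). A group without any array at a detection p under 0.01 was called below background for that probe. "At least" then marks a bound, in which each array of that group counts at its own value or, if higher, at the lowest value with a detection p under 0.01. The number of arrays limits the precision. The test was checked on simulated data.

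The text names Cldn16, the 15 higher and 15 lower genes with the smallest unadjusted p and no overlap, the calcium and magnesium list with Cldn19, up to 3 members of each other list by smallest p, the 8 genes of KO against WT, and 5 detected genes on each side of Cldn16 in a reference gene order (assembly GRCm38.p6; the array files name no build, so no coordinates are given). The members and the 29 lists were chosen with earlier results of these data known. List medians use the brightest probe per gene (12179 genes) and carry no test. Alternatives covered the background, normalization, filter, slide, postnatal day, array weights and each array left out. Samples share no replicate numbers in the labels, so none were paired.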

Additional observations from a re-analysis of the deposited data

Results flagged for a closer look

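In 5 of 183 groups of 4 arrays examined (2.73%), 1 array lay far from the other 3 by Dixon's criterion, which chance alone meets in about 1 of 20 groups. Adipoq was 8.09 on WT 4 and 9.21 to 9.41 on the other WT arrays. Mcm6 was 4.31 on WT 1 and 9.06 to 9.93 on the others. Birc5, a mitosis gene, was 6.08 on WT 4 and 5.58 to 5.64 on the others. Cnnm2 was 10.27 on WT 3 and 10.60 to 10.61 on the others. Grin3a was 6.14 on WT 4 and 6.68 to 6.74 on the others.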

How the results depend on the processing

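The count of 0 called probes held in all alternatives except 3. Slide 1 alone called 1 probe (Dao) and slide 2 alone, with a single Het array assumed to vary like the other groups, called 10 (Gin1, Prkag2, 3 probes of Mcm6 and 5 unnamed); leaving out single arrays called 0 to 1, the 1 being Col17a1 without WT 3 (lowest adjusted p 0.0165). On slide 2 alone Mcm6 was at -5.38 (limma adjusted p = 0.00341). The departure from the midpoint called 1 probe on slide 1 alone, 11 on slide 2 alone and 0 otherwise. The lowest adjusted p with postnatal day as a term was 0.0596. Probes at an unadjusted p under 0.05 numbered 992 without Het 2 and 1886 with array weights, beside 1543, each of 22856 tested. With no filter they numbered 2818 of 45281. Cldn16 stayed between -0.28 and -0.03, with adjusted p of 0.843 or above. Small differences changed sign, all without passing the test. On slide 1 alone these were Atp2b4 (0.0093), Trpm7 (-0.087), S100g (0.47), Trpv5 (0.069), Stc1 (0.37), Egfr (0.24), Casr (-0.12), Slc8a1 (0.17), Trp63 (-0.045) and Fgf12 (0.24). On slide 2 alone they were Adipoq (2.04), Pcbd1 (0.048), Cnnm2 (0.011), Cldn19 (0.12), Grin3a (0.074), P3h2 (0.075), Tmem207 (-0.23) and Il1rap (-0.029). Without the 3 arrays highest in adipose genes (Het 3, KO 1 and KO 4), a choice made after seeing the data, they were S100g (0.26), Trpv5 (0.050), Egfr (0.0053), Slc8a1 (0.076), Trp63 (-0.019), Il1rap (-0.0076) and Fgf12 (0.096). With medians shifted they were Cnnm2 (0.050), Trpv5 (0.024), Stc1 (0.030), Egfr (0.092), Cldn19 (0.11), Slc8a1 (0.11) and Fgf12 (0.011). Array weights turned Stc1 (0.011), Egfr (0.015), Casr (-0.0037) and Fgf12 (0.067), slide and day terms Pcbd1 (0.061) and Cldn19 (0.017), the slide block Casr (-0.0089), and cyclic loess Fgf12 (0.00063). With single arrays left out, the values ran from -1.87 to 0.094 for Adipoq, -0.52 to 0.26 for S100g, -0.15 to 0.050 for Trpv5, -0.26 to 0.12 for Stc1, -0.13 to 0.11 for Egfr, -0.045 to 0.098 for Casr, -0.096 to 0.039 for Cldn19, -0.18 to 0.077 for Slc8a1, -0.020 to 0.49 for Trp63, -0.037 to 0.16 for Tmem207, -0.086 to 0.17 for Il1rap and -0.19 to 0.097 for Fgf12. The Slc8a1 values here are those of the probe called in KO against WT, while its brightest probe stayed between -0.51 and -0.20. The causes of the sign changes were not tested. No paired analysis was possible because the labels give the groups no shared replicate numbers. Signal over background limits the dim probes: below background a fold is only a bound.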

Other observations

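Chromosome 1 held the highest share of genes with an unadjusted p under 0.05 in Het against WT. There were 80 of 642 tested genes (12.5%), 34 higher and 46 lower, and the next share was 8.23% on chromosome 14. Of the 15 lower genes named above, 5 lie on chromosome 1 (Slc16a14, Colgalt2, Sec16b, Fcrla and Vangl2), which held 642 of the 12179 tested genes. Fcrla among them was below background in both groups, and none of the 15 higher genes lie there. Chromosome 1 had the highest share in 24 of 26 alternatives, with 6.85% to 13.9%, and not on slide 1 alone (7.63%) or slide 2 alone (7.17%). In KO against the same WT arrays the share was 10.6% on chromosome 1 and 12.7% over all chromosomes. By genes whose Het and WT arrays did not overlap, chromosome 1 was not highest. It had 8.10% of its tested genes, beside 8.74% on chromosome 19 and 8.72% on chromosome 14. The pattern was noticed in these data and was not tested, and the labels do not say which strain's alleles each mouse carried on chromosome 1.

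Mcm6, a subunit of the replicative helicase that also lies on chromosome 1, had the widest difference of any tested probe. It read 4.31, 9.06, 9.65 and 9.93 in WT 1 to WT 4, and 4.36, 4.36 and 4.26 in Het. On the KO arrays it read 4.36, 8.90, 9.72 and 9.10. On that probe all 3 Het arrays were below background, at least 8.77-fold under the WT mean. WT 1 and KO 1 had the same low level, so that the limma adjusted p was 0.663 (-3.91 ± 1.32). The other probes of Mcm6 gave -2.01 and -1.93. The probe at -1.93 was detected at a p under 0.01 on all 3 Het arrays, and the probe at -2.01 on 1 of them. Mcm2, another helicase subunit, differed by -0.31 ± 0.13.

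Such a step between a low and a high level was found for 12 tested probes, of 9 named genes, when a gap of at least 3 on the log2 scale with at least 2 of the 11 arrays on each side was asked for; this rule was set after the values were seen. Among them was a probe of Dao, a D-amino acid oxidase of the proximal tubule (ILMN_2862633). It read 4.97, 4.95, 10.73 and 10.60 in WT and 10.89, 11.10 and 4.60 in Het. A further Dao probe (ILMN_2592844) ran only from 8.18 to 9.37 on the same arrays, so that the step was seen by 1 of the gene's probes and not by the other. Havcr1, which encodes the injury marker KIM-1, read 10.46, 11.06, 5.73 and 11.81 in WT and 5.64, 9.67 and 10.996 in Het (-0.995 ± 1.56). It is a member of the tubule injury list, and both levels occurred in WT and in Het. The other named genes with a step were Me1, Folh1, Ctsc, Spink8, Abhd1 and Rpl29.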
